A study of Homo sapiens with 2 samples.

Results

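The CXC chemokine cluster on chromosome 4 holds 8 genes taken here as its members: CXCL1, CXCL2, CXCL3, CXCL5, CXCL6, CXCL8, PF4 and PPBP. The members were chosen by family and position, and every p52 summit from 50 kb outside the first to 50 kb outside the last of their gene bodies was used. In hg38 this window was chr4:73690519-74149196, a length of 459 kb, and GENCODE release 44 annotated 24 genes in it, of which 11 were protein-coding. The window held 5 of the 3474 summits of the series, 4 of 2007 in replicate 1 and 1 of 1467 in replicate 2.

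The summits came from chromatin immunoprecipitation followed by sequencing (ChIP-seq) for p52, the processed form of NFKB2, and the labels name NFKB2 as the antibody's target. The cells were MDA-MB-231, a line established from triple-negative breast cancer. Both libraries belonged to 1 group: cells starved in Opti-MEM for 8 h and then given 10 ng/ml of TWEAK, the cytokine ligand of the receptor Fn14, for 48 h, with fresh TWEAK after 24 h. The study's methods state biological replicates for ChIP-seq of cell lines, and the labels number the libraries 1 and 2. No untreated, input or IgG library was analysed here, so no value below is an effect of TWEAK.

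CXC chemokines are small secreted proteins that direct leukocyte migration. Members with the residues Glu-Leu-Arg before the first cysteines (the ELR motif) attract neutrophils through the receptors CXCR1 and CXCR2 and promote angiogenesis, and several are secreted by tumour cells. CXCL1, CXCL2, CXCL3, CXCL5, CXCL6 and CXCL8 are ELR chemokines made by epithelial cells, fibroblasts and myeloid cells on inflammatory stimulation, and they are textbook targets of NF-κB. PPBP and PF4 encode chemokines stored in platelet granules, and PF4 lacks the ELR motif. p52 is released from its precursor p100 in the non-canonical NF-κB pathway, pairs chiefly with RELB, and binds κB sequences.

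The sequences on which the results turn are the bases just upstream of the start sites, because 3 of the 5 summits lay in member promoters. RefSeq promoters (GRCh38.p14, from 250 bases before to 50 after the start site) matched 7 of the 8 members. The 100 bases before the start are shown 5′ to 3′ on the strand of each gene, with capitals marking the 10-base κB matches, or for CXCL8 the 9-base one. A 10-base κB match was 3 Gs, a purine, any 2 bases, 2 pyrimidines and 2 Cs, on either strand, and a 9-base match had one G fewer.
CXCL1 (chr4:73869293-73869392, plus strand): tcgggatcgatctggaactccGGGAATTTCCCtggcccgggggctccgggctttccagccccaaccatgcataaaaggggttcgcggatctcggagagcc
CXCL2 (chr4:74099196-74099295, minus strand): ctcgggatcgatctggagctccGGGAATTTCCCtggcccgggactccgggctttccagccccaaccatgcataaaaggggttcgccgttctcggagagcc
CXCL3 (chr4:74038690-74038789, minus strand): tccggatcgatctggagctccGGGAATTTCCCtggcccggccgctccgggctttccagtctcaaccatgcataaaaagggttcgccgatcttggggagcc
CXCL5 (chr4:73998678-73998777, minus strand): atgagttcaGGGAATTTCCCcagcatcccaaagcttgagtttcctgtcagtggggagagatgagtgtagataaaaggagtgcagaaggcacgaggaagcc
CXCL6 (chr4:73836578-73836677, plus strand): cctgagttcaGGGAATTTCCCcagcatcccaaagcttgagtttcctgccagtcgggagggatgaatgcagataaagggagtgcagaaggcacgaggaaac
CXCL8 (chr4:73740469-73740568, plus strand): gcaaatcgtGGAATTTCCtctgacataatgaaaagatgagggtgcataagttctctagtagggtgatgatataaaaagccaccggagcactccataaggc
PPBP (chr4:73988191-73988290, minus strand): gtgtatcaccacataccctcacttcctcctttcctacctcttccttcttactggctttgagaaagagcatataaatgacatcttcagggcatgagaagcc
In 5 of these promoters the capitals were the same 11 bases, GGGAATTTCCC, a stretch that holds a 10-base match on each strand. It began 78 or 79 bases before the start in CXCL1, CXCL2 and CXCL3 and 90 or 91 bases before it in CXCL5 and CXCL6. CXCL8 had only the 9-base match GGAATTTCC. PPBP had neither form, and PF4 was not matched.

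In replicate 1, p52 had a summit at the promoters of CXCL1, CXCL2 and CXCL3, and in neither replicate at those of CXCL5, CXCL6, CXCL8, PF4 or PPBP. The CXCL2 summit was the strongest of the window in that replicate, with a −log10 q of 21. Here q is the false discovery rate of a peak caller, and a larger −log10 q is a stronger peak. The value was read as −log10 q from the layout of the lists, which do not name it. The CXCL3 and CXCL1 summits had a −log10 q of 11.2 and 10.5. Replicate 2 had no summit at any of these promoters. Its 1 summit in the window, with a −log10 q of 14.7, lay in intergenic sequence between CXCL3 and CXCL2, and replicate 1 had a summit of 8.13 at a distance of 17 bp from it.

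**Figure D1:**
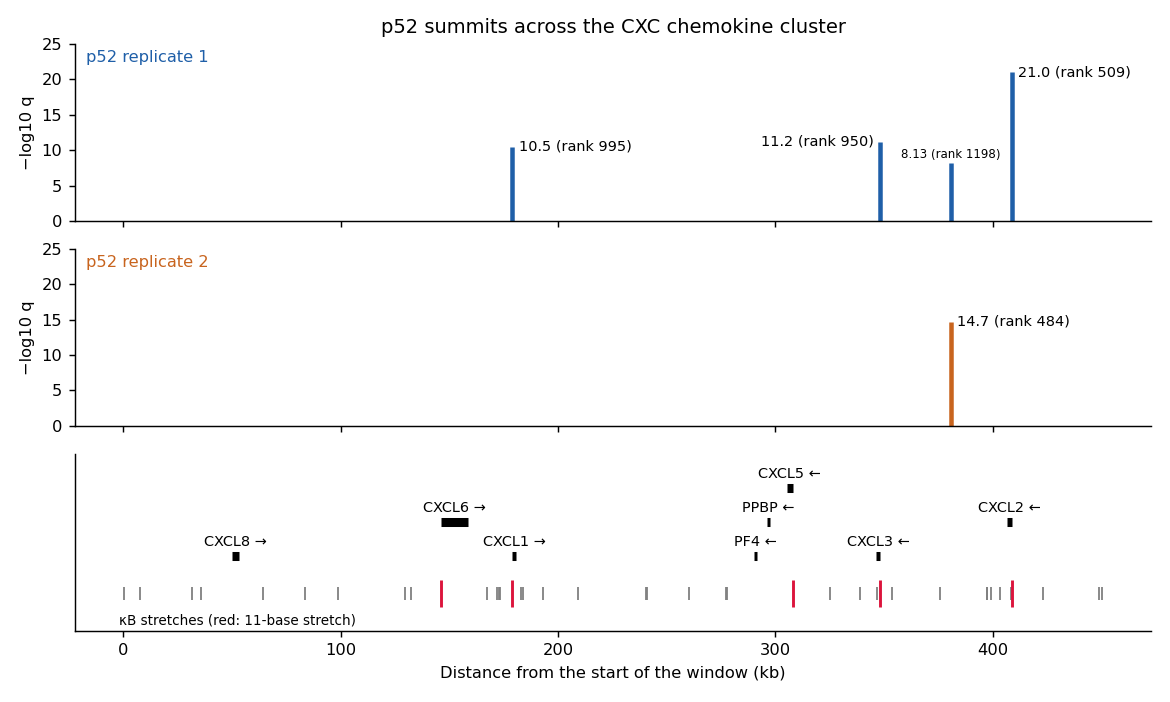
The upper panels plot the −log10 q of each p52 summit (with its rank in its own list) against distance in kb from the start of the window, for replicate 1 and replicate 2; the bottom panel shows the 8 gene bodies with arrows for their direction and the 40 κB stretches, with the 11-base stretch in red. Replicate 1 has 4 summits, 3 of them over red stretches, and replicate 2 has 1, which meets replicate 1 at the distal site.

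The lists had no header and their values depend on sequencing depth, which was unknown, so values were read within a list only, by rank. A promoter without a summit can still be bound below what that library could show. The median −log10 q was 10.3 in replicate 1 (lowest 1.0, highest 531) and 9.47 in replicate 2 (lowest 1.02, highest 594). The cluster medians were 10.8 over 4 summits in replicate 1 and 14.7 for the 1 summit of replicate 2. All counts and shares below describe 2 lists of 1 condition, and no test was run on them, since the members were chosen with results of these data known.

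CXCL2 encodes a neutrophil attractant that acts through CXCR2. The gene (ENSG00000081041, chr4:74097040-74099196, minus strand) had its promoter summit in replicate 1 at chr4:74099284-74099284, 88 bp upstream of the annotated start and outside any annotated gene body. It ranked 509 of 2007, a rank percentile of 25.4, where 0 is the strongest and 100 the weakest. The centres of the overlapping 10-base matches of the GGGAATTTCCC stretch (chr4:74099263-74099273) lay 16.5 and 15.5 bp from the summit, on the side of the start site. The nearest summit of replicate 2 was 28127 bp away.

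CXCL3 encodes a closely related neutrophil attractant. The gene (ENSG00000163734, chr4:74036589-74038807, minus strand) had its summit in replicate 1 at chr4:74038756-74038756, with rank 950 of 2007 and a rank percentile of 47.3. Annotations differed on its place. It lay 51 bp inside the outermost GENCODE start, in an exon of CXCL3 that carries no UTR annotation at that base, and 67 bp upstream of the RefSeq start. The matches of the stretch (chr4:74038758-74038768) were centred 6.5 and 7.5 bp from the summit, which was closer than at CXCL1 or CXCL2. The nearest summit of replicate 2 was 32401 bp away.

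CXCL1 encodes the chemokine first described as melanoma growth stimulatory activity. The gene (ENSG00000163739, chr4:73869393-73871308, plus strand) had its summit in replicate 1 at chr4:73869355-73869355, 38 bp upstream of the start, with rank 995 of 2007 and a rank percentile of 49.6. The stretch (chr4:73869314-73869324) lay further upstream, with match centres 36.5 and 35.5 bp from the summit. The nearest summit of replicate 2 was 201802 bp away. All 3 promoters had a second 9-base match, GGGCTTTCC, at 53 to 45 bases before the start, CXCL1 had one more between these, GGGGGCTCC, and CXCL3 had GGGCTCCCC further upstream.

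**Figure D2:**
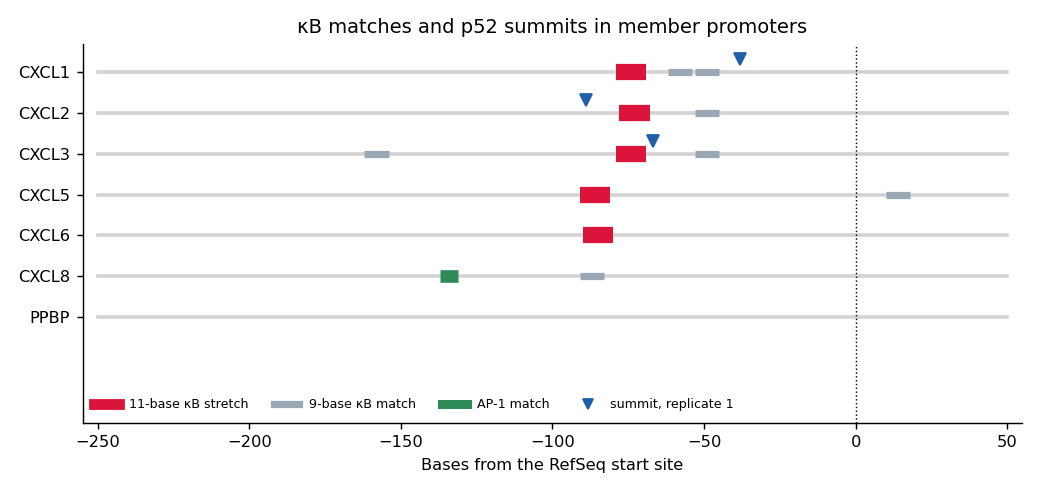
Positions in bases from the RefSeq start site (dotted line) of the 11-base κB stretch, other 9-base κB matches, AP-1 matches and the replicate 1 summits in the 7 matched promoters. The 3 summits (triangles) lie at -38 in CXCL1, -89 in CXCL2 and -67 in CXCL3, each within 100 bp of a red stretch, while CXCL5 and CXCL6 have the stretch and no summit.

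The distal site was the place in the window where both replicates had a summit. Replicate 1 had it at chr4:74071140-74071140 with rank 1198 of 2007 (rank percentile 59.7), the weakest of its 4, and replicate 2 at chr4:74071157-74071157 with rank 484 of 1467 (rank percentile 33.0). It lay past the 3′ end of CXCL2, 25883 bp beyond the gene body from the replicate 2 summit, and 32350 bp from the nearest CXCL3 start. The closest annotated start was that of ENSG00000288019, a long non-coding RNA gene, at 5376 bp from the replicate 2 summit and 5393 bp from that of replicate 1. No gene body covered either summit.

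The sequence from just before the first to just after the second of these summits is shown as the site held in common, with its 1 κB match of 9 bases in capitals.
Distal site (chr4:74071065-74071232, plus strand): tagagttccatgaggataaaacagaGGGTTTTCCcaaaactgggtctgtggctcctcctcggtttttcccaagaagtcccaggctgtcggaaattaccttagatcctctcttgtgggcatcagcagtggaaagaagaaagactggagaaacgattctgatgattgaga
These 168 bases held no 10-base match. Its 9-base match, GGGTTTTCC (chr4:74071090-74071098), was centred 46 bp before the summit of replicate 1 and 63 bp before that of replicate 2. The GC content within 100 bp of the summits was 45.3% in replicate 1 and 43.8% in replicate 2. At the promoter summits it was 68.2% for CXCL1, 68.2% for CXCL3 and 65.2% for CXCL2.

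The cluster held too few summits to show whether sharing between the replicates followed rank. A summit was called shared when one of the other list lay within 200 bp. In replicate 1, 1 of 4 cluster summits was shared, against 49.3% of the whole list, and the shared one was the weakest of the 4. In replicate 2, the 1 cluster summit was shared, against 67.5%. Among the 690 summits of replicate 1 with a −log10 q from 8.13 to 21, the range of the cluster, 55.8% were shared. With each list cut by rank into 10 classes, the class of the CXCL2 summit (−log10 q of 18.3 to 25.8) was shared at 79.4%, that of CXCL3 and CXCL1 (10.3 to 13.4) at 49.2%, and that of the distal summit (8.05 to 10.3) at 45.3%. In replicate 2 the class of the distal summit (12.4 to 15.7) was shared at 82.2%. Over all RefSeq promoters, 36.4% of the 77 with a replicate 1 summit also had one of replicate 2, and of the 59 that also held a 10-base κB match 42.4% did. Of the CXCL1, CXCL2 and CXCL3 promoters 0 of 3 did.

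**Figure D3:**
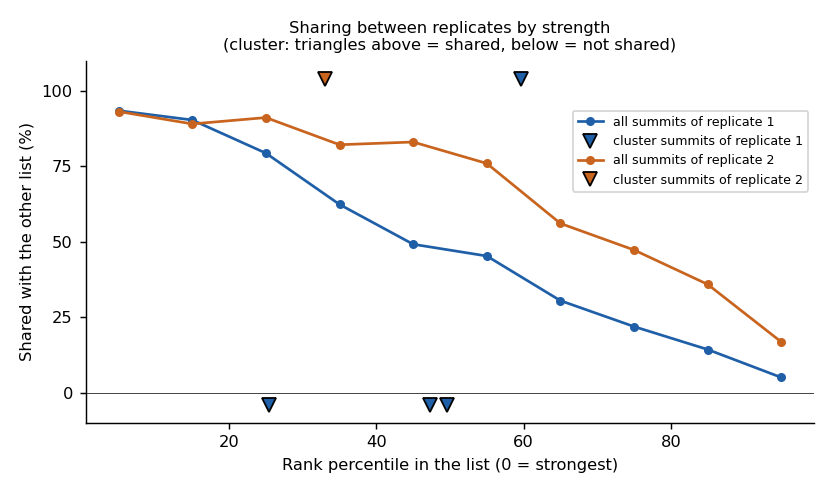
Lines give the percentage of summits shared with the other list in each of 10 rank classes (x axis, rank percentile, 0 is the strongest) for both replicates, and triangles mark the 5 cluster summits at the top where shared and at the bottom where not. The replicate 1 summits of CXCL2, CXCL3 and CXCL1 sit at the bottom at 25.4, 47.3 and 49.6, and the distal summits at the top at 33.0 and 59.7.

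**Figure D4:**
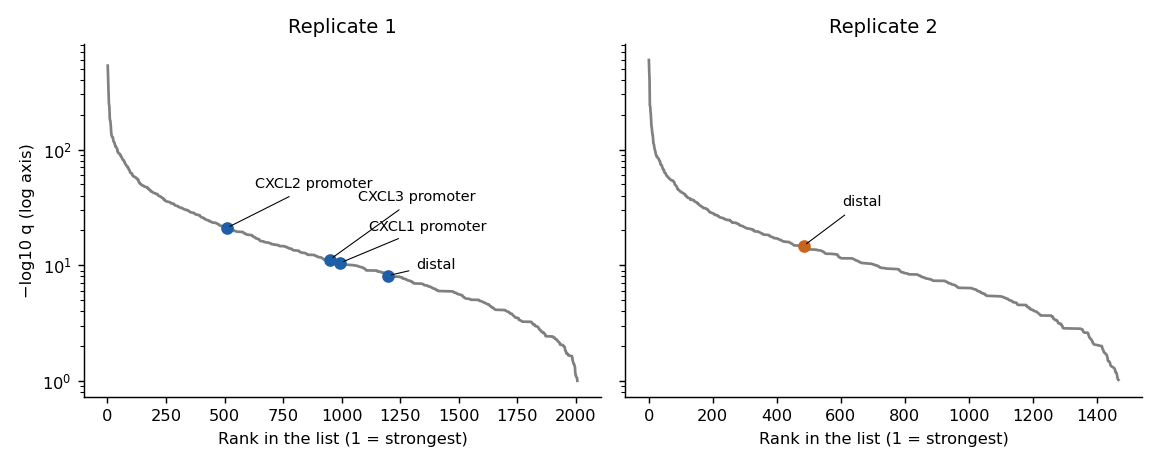
The −log10 q (log axis) of every summit against its rank in its own list (grey line), with the cluster summits as points, for replicate 1 and replicate 2. CXCL2 stands at rank 509, CXCL3 and CXCL1 at 950 and 995 near the middle of the list, and the distal site at 1198 in replicate 1 and at 484 in replicate 2.

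κB matches at so few summits cannot be read against the shares of the lists, and they depended on the length of the match. With a 10-base match wholly within 100 bp counted, 3 of the 4 replicate 1 summits had one, all at promoters, against 52% of that list on chromosomes 1 to 22, X and Y. The replicate 2 summit had none, against 57.3%. With the 9-base form all 5 summits had a match, against 58.8% in replicate 1 and 63.8% in replicate 2. CXCL1 and CXCL3 had 3 such matches each, CXCL2 had 2 and the distal site 1. No cluster summit had an AP-1 match (TGAGTCA or TGACTCA), against 7.93% and 7.67% of the lists. A match is a description of the letters and not a binding site.

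Merged over strands, the window held 40 stretches with a 10-base match. Of these, 3 lay within 100 bp of a replicate 1 summit, against 0.278% of the 403422 such stretches on chromosomes 1 to 22, X and Y, and 0 within 100 bp of a replicate 2 summit, against 0.211%. Within 1 kb of a member start there were 6, namely the GGGAATTTCCC stretches of CXCL1, CXCL2, CXCL3, CXCL5 and CXCL6 and 1 more inside CXCL2 (chr4:74098914-74098923), 276 bp from its start. The other 34 were over 1 kb from a member start, and 0 of them were at a summit, which at these background shares is the usual value for so few. All 5 occurrences of GGGAATTTCCC in the window were in member promoters. The window also held 83 AP-1 matches, 0 of them at a summit, against 0.0327% of AP-1 matches on those chromosomes in replicate 1 and 0.0227% in replicate 2, so the 0 sets the window apart in no way. One of these was in the CXCL8 promoter, 137 to 131 bases before the start.

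The promoters with a summit were alike in sequence beyond the κB stretch. Over the 300 bases of the RefSeq promoters, CXCL1 and CXCL3 were 82.5% identical, CXCL3 and CXCL2 73.7%, and CXCL1 and CXCL2 69.8%. CXCL5 and CXCL6, which had the stretch and no summit, were 83.1% identical to each other. The remaining pairs were 43.0% to 52.3% identical. Because near-identical copies can share reads, the 31-base words within 100 bp of each summit were counted in the reference. Alternate sequences were left out, so copies on them were not counted. Of 171 words, 93.0% occurred once for CXCL1, 95.9% for CXCL3, 88.9% for CXCL2 and 100% for the distal site, and none occurred more than 2 times. Their part in the calls was not tested.

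Across all 35116 RefSeq promoters on chromosomes 1 to 22, X and Y, 0.219% held a replicate 1 summit and 0.0968% one of replicate 2. A 10-base κB match was found in 11.3% of promoters and in 5 of the 7 matched members. Of the promoters with such a match 1.49% held a summit in replicate 1 and 0.708% in replicate 2, and of the 5 members 3 and 0 did. The 9-base form was found in 32.1% of promoters and in 6 of 7 members. An AP-1 match was found in 4.95% of promoters and in 1 of 7 members, CXCL8.

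The comparison was narrowed to GGGAATTTCCC after the values had been seen. That stretch was in 27 promoters, or 0.0769% of all, and 5 of the 27 were members. Of the 27, 40.7% held a replicate 1 summit and 11.1% one of replicate 2. Without the members, 8 of 22 (36.4%) held a replicate 1 summit, beside 3 of 5 in the cluster. The 8 include REL and its divergent transcript REL-DT, which share their promoter region and both held a replicate 2 summit. These promoters are therefore not independent counts. Over chromosomes 1 to 22, X and Y the stretch occurred 1682 times, of which 5.23% lay within 100 bp of a replicate 1 summit and 3.75% within 100 bp of a replicate 2 summit.

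**Figure D5:**
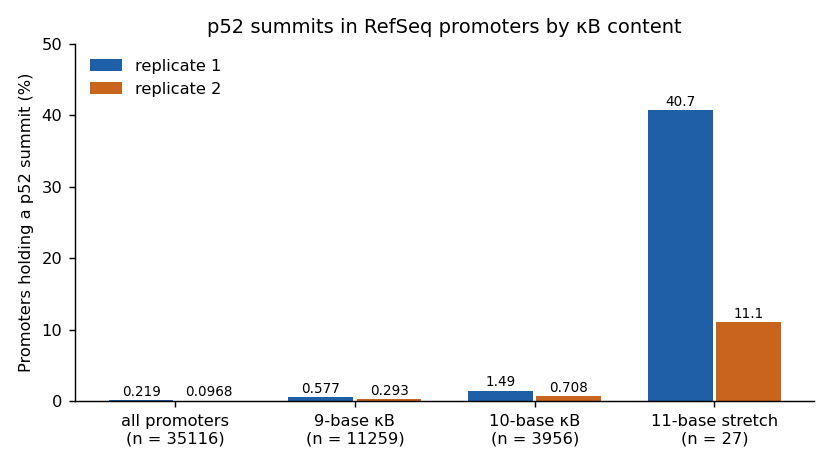
Bars give the percentage of RefSeq promoters that held a p52 summit in replicate 1 and in replicate 2, for all 35116 promoters and for those with a 9-base κB match, a 10-base match or the 11-base stretch of the members. The shares rise from 0.219% to 40.7% in replicate 1 and from 0.0968% to 11.1% in replicate 2. The last group of 27 includes 5 members, and also REL and REL-DT, which share their promoter region.

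The 5 members without a promoter summit differed in how far they lay from one. CXCL8 (ENSG00000169429, chr4:73740519-73743716, plus strand), a neutrophil attractant and a well-known NF-κB target, was the farthest, with its nearest summit at 129 kb in replicate 1 and 331 kb in replicate 2. CXCL6 (ENSG00000124875, chr4:73836640-73849064, plus strand), an epithelial ligand of CXCR1 and CXCR2, was 32.2 kb from the CXCL1 summit in replicate 1 and 234 kb from a summit in replicate 2. CXCL5 (ENSG00000163735, chr4:73995642-73998677, minus strand), also known for its release by epithelial cells, was 40.1 kb from the CXCL3 summit in replicate 1 and 72.5 kb from the distal one in replicate 2. These are distances along the chromosome and assign no summit to a gene.

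The platelet genes lay between. PF4 (ENSG00000163737, chr4:73980811-73982027, minus strand) was 56.7 kb from a summit in replicate 1 and 89.1 kb in replicate 2. PPBP (ENSG00000163736, chr4:73986439-73988190, minus strand) was 50.6 kb and 83.0 kb from one. With 50 kb from a start site as the limit, 5 of 8 members had a summit in replicate 1 (CXCL1, CXCL2, CXCL3, CXCL5 and CXCL6), against 15.0% of all 20033 protein-coding genes. In replicate 2 it was 2 of 8 (CXCL2 and CXCL3), against 9.44%. Both replicates had one for 2 of 8, against 7.81%, and for CXCL2 and CXCL3 alike the replicate 2 summit was the distal one. Neighbouring members share summits, so the genes are not independent counts.

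The density of summits in the window was 8.72 per Mb in replicate 1 and 2.18 per Mb in replicate 2, a mean of 5.45 ± 4.62 (SD, n = 2). The whole genome had 0.584 and 0.397 per Mb, and chromosome 4 had 0.505 and 0.31 per Mb. When the genome was divided into 6418 segments of the window's length, 0.374% held at least 4 summits of replicate 1 and 15.5% at least 1 of replicate 2. Outside the window the next summits were 832 kb before it, at 15.2 and 22.6 −log10 q, and 82.1 kb after it, inside MTHFD2L, at 4.38 and 7.08. Both outer sites were shared and had no 10-base κB match. The peak numbers of the lists ran without a gap from the site before to the site after in each replicate, so no called peak of the window had been removed from either list. The numbers at the site after were 2647 in replicate 1 and 2898 in replicate 2, above the 2007 and 1467 summits listed. Called peaks were therefore missing elsewhere, and every rank, median, share and density here describes the deposited lists only.

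Summits within 50 kb were also counted for 33 other chemokine and receptor genes, of which 3 had one in replicate 1, 1 in replicate 2 and 1 in both. The shares of all protein-coding genes given above, 15.0%, 9.44% and 7.81%, were higher than these counts give. The receptors of the ELR chemokines, CXCR1 and CXCR2, had 0 of 2 in either replicate, a count too small to read against those shares. Of 6 other CXC receptors, CXCR5, the receptor that guides B cells into follicles, had one in replicate 1 alone (−log10 q 6.27, rank 1394). Of 9 other CXC ligands, PF4V1, a close paralog of PF4 within the window, was reached by the CXCL1 summit of replicate 1 at 16059 bp. Both of these genes were picked out after their values had been seen. Of 16 CC and CX3C ligands, CCL28, a mucosal epithelial chemokine, had a shared summit at the same base in both replicates (chr5:43422418-43422418, 10027 bp from a start), with rank 97 in replicate 1 and 140 in replicate 2, and a 10-base κB match.

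Windows drawn in the same way around other chemokine clusters were set beside the members. The CXCL9 to CXCL11 cluster on chromosome 4 (140 kb), the CCL2 to CCL1 cluster (208 kb) and the CCL5 to CCL4 cluster (334 kb) on chromosome 17 held 0 summits in either replicate. That is the usual value for windows of their lengths, since 91.6%, 87.8% and 81.9% of genome segments as long as these held no summit in either list. Beyond MTHFD2L on chromosome 4, the window of the EGFR ligand genes AREG, EREG, EPGN and BTC (586 kb) held 2 summits in each replicate, or 3.41 per Mb. All were shared and had a 10-base κB match. Their strongest ranked 35 in replicate 1 and 25 in replicate 2. The CXC chemokine window had more summits than this EGFR ligand window in replicate 1 and fewer in replicate 2, and none of its summits ranked above 484 in either list.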

How the data were processed

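p52 ChIP-seq was analysed in 1 group of 2 replicates of TWEAK-treated MDA-MB-231 cells. According to the ChIP-seq methods of the study, the authors trimmed adaptors (Trimmomatic), aligned the reads to hg38 (Bowtie2), called peaks against input signal (MACS2) and took out blacklisted regions (bedtools). Those methods name antibodies against other targets and none against p52 or NFKB2, so their steps are taken to hold for these libraries. Of the antibody the labels give only the target, NFKB2. Its product, the tool versions and the q-value threshold are not given in the sources used here. By their peak names, the replicates were called separately. The deposited lists held 1 summit of 1 bp per peak and a value read as −log10 of the q-value from the layout of MACS2 summit files, since there was no header. Read depth was unknown.

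The members and lists were chosen with earlier results of these data known. All members and all summits in the window were named, of the other chemokine genes those with a summit in both replicates, and any other gene after its values had been seen. Summits were ranked within each list, called shared within 200 bp, and searched for κB (10 or 9 bases) and AP-1 (7 bases) matches lying wholly within 100 bp. Gene and motif backgrounds used chromosomes 1 to 22, X and Y. Ranks, medians and shares of shared summits used all listed summits. Of these, 1804 of 2007 in replicate 1 and 1225 of 1467 in replicate 2 lay on those chromosomes. Segments of the window's length with over 50% unknown bases were left out. In both lists together, 3 summits lay on additional sequences of chromosome 4 (alternate or unlocalized) and were not placed in the window. Percent identity of promoters came from a global alignment. The finding of planted 10-base κB matches and the counting of sharing were tested on simulated data. The 9-base and AP-1 searches were not tested in this way. Python 3.11.15, numpy 2.4.6, pandas 2.3.3, pysam 0.24.0, samtools 1.23.1, Biopython 1.88 and matplotlib 3.10.9 were used. Alternatives covered the window, the stronger 50% of each list, each replicate, the sharing and motif distances, the motif length and the gene distance.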

Additional observations from a re-analysis of the deposited data

How the results depend on the processing

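Of 33 alternatives over the 6 results of the cluster, 25 stayed within 1.5 times the reported count or within the spread between replicates, and 8 moved. For the density, leaving out either replicate was bound to count as staying, since the spread came from the same 2 values. Those alternatives therefore say nothing on how stable the density was. With only the stronger 50% of each list, 0 in place of 2 cluster summits were shared, because the distal summit of replicate 1, at rank percentile 59.7, was no longer in the list. Leaving out each replicate in turn gave 1 to 4 cluster summits in place of 5 and 0 to 3 with a 10-base κB match in place of 3. It gave a median rank percentile of 33.0 to 48.5 in place of 47.3, a density of 2.18 to 8.72 per Mb in place of 5.45, and 2 to 5 member genes with a summit within 50 kb in place of 2 with one in both. Replicate 1 carried all of the promoter summits: without it there was 1 summit and 0 with a 10-base match. The 9-base κB form was found at 5 summits in place of 3. Within 20 kb of a start site 0 members had a summit in both replicates, and within 100 kb 5 did. Moving the window edges to 20 kb or 100 kb changed no count of summits. Sharing has no value with 1 replicate. No paired analysis was possible because there was 1 group. With 2 lists, unknown depth and no untreated or input library, the data do not separate a promoter unbound in replicate 2 from one below its threshold.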

Other observations

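The stretch GGGAATTTCCC of the CXCL1, CXCL2, CXCL3, CXCL5 and CXCL6 promoters was also in promoters of other genes with a p52 summit, and these were picked out after their values had been seen. The promoters of NFKBIB, which encodes an inhibitor that holds NF-κB in the cytoplasm, and of REL, an NF-κB subunit, with its divergent transcript REL-DT, held a summit in both replicates. Those of OPTN, which encodes the ubiquitin-binding protein optineurin, and of CACHD1, CCDC3, LOC105377275 and LOC107984966 held one in replicate 1 and none in replicate 2, as did CXCL1, CXCL2 and CXCL3. REL and REL-DT share their promoter region and can hold the same summit.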
